A study of Arabidopsis thaliana with 33 samples.

Results

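The nuclear genes for the photosystems, their light-harvesting antennae and the electron carriers beside them are described here in regenerating Arabidopsis explants. A list of locus codes was chosen with earlier results of these data known. The members are the 48 loci on it, of 33400 in the deposited count table, and no cut on their values was made. They comprise 15 LHCB genes (antenna of photosystem II, LHCB1 to LHCB7), 6 LHCA genes (antenna of photosystem I, LHCA1 to LHCA6), 12 photosystem I subunits (PSA genes), 10 photosystem II subunits (PSB genes), and 5 carrier and ATP synthase genes (PETC, PETE1, PETE2, ATPC1 and ATPD). RNA was sequenced from hypocotyls of 7-day-old seedlings that had grown in low light (2 µmol per square metre per second), which gave 33 libraries: 11 groups with 3 biological replicates apiece. The T0 groups were uncultured Col-0 and hy5-2 hypocotyls from low light. The cultured groups spent 4 days on callus-inducing medium (CIM, with the auxin 2,4-D and the cytokinin kinetin), or those 4 days and then 4 or 8 days on shoot-inducing medium (SIM, with the auxin IAA and the cytokinin 2-iPA). Col-0 was cultured in low light and in high light (40 in the same unit), and the mutant hy5-2 in high light. No hy5-2 culture in low light was analysed here, high light began together with culture, and time and medium moved together. Each library is bulk tissue, so fewer cells of a type and less RNA per cell cannot be told apart.

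The photosystems sit in the thylakoid membrane of chloroplasts and turn absorbed light into electron flow. LHC proteins bind chlorophyll and pass excitation to the reaction centres, whose core subunits are encoded in the chloroplast, while the antennae and many outer subunits are encoded in the nucleus. HY5, mutated in hy5-2, is a light-stabilised bZIP transcription factor that binds ACGT-containing DNA elements, the G-box among them. Roots and callus hold few developed chloroplasts, and greening of callus in light is a known step on the way to shoots.

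LHCB1.1 (AT1G29920), LHCB1.2 (AT1G29910) and LHCB1.3 (AT1G29930) lie next to each other on chromosome 1 and are near-identical, which is why their sequences are shown: a read from a conserved stretch matches all 3. Their coding sequences differ at 47 positions, and pairwise identity is 95.65 to 96.39%. Bases 25 to 84 of each coding sequence (TAIR10.1 from RefSeq, chr1:10475809-10475868 on the minus strand for LHCB1.1, chr1:10473163-10473222 on the minus strand for LHCB1.2 and chr1:10478095-10478154 on the plus strand for LHCB1.3) are given 5′ to 3′, with capitals at the 8 positions where the genes differ.
LHCB1.1: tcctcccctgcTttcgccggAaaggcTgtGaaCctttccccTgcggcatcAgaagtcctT
LHCB1.2: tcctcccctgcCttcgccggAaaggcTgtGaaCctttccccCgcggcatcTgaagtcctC
LHCB1.3: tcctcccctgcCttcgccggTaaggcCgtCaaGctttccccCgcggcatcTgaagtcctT
Of all 50-base stretches in the transcripts, 10.65% (LHCB1.2) to 22.29% (LHCB1.5) recur in another locus for the 5 LHCB1 genes, so the split of reads among them is uncertain. For each gene other LHCB1 genes are among the loci that share, and for LHCB1.3 and LHCB1.5 so are AT1G29940 and AT2G34410, which are no LHCB1 genes.

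The 250 bases before the annotated start are shown for PSBQ2 (AT4G05180), an extrinsic subunit of photosystem II that had the largest deficit of its class in hy5-2 after 4 days on SIM, and for LHCA4 (AT3G47470), an antenna gene of photosystem I that was the highest member per kb in hy5-2 cultures. The PSBQ2 window is chr4:2673244-2673493 and the LHCA4 window chr3:17495034-17495283, both on the minus strand of TAIR10.1 from RefSeq and written 5′ to 3′. Capitals mark the G-box (CACGTG) and the I-box (GATAAG).
PSBQ2: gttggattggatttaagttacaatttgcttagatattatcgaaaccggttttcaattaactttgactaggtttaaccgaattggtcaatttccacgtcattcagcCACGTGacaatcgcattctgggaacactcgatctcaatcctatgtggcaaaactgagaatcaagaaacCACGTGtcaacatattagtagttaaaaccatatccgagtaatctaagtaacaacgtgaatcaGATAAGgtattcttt
LHCA4: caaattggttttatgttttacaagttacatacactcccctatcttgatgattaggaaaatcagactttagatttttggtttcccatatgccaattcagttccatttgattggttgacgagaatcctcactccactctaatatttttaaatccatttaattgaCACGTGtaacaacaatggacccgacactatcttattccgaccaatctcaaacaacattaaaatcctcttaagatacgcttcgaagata

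Libraries held 7.24 to 21.18 M counted reads (median 10.06 M; M is 1e6), and levels are given as CPM, counts per 1e6 of the TMM-adjusted library total. HY5 was at 1.86 to 3.74 CPM in the hy5-2 libraries and at 6.53 to 47.5 CPM in the Col-0 libraries. A gene is said to have risen or fallen where its Benjamini-Hochberg adjusted p over all 20842 tested genes was under 0.05 in edgeR's quasi-likelihood test; 47 members were tested, and LHCA6 was not, with 44 counts in all libraries together. The 77 chloroplast loci of the table had 0 counts, so chloroplast-encoded subunits were not analysed here. The first Col-0 T0 library stood apart from its replicates, with members summing to 8560 CPM against 14400 CPM in both others. The second library of Col-0 on SIM for 4 days in low light was high (842 against 588 and 475 CPM), and the first library of Col-0 callus in high light was high (1330 against 1110 and 980 CPM). In that callus library the mesophyll marker CA1 was at 6.75 CPM and in its replicates at 0; its part in the results was not tested.

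In uncultured Col-0 hypocotyls the 48 genes took 0.733, 1.21 and 1.25% of all counts. Their summed level was 12500 ± 3370 CPM (mean ± SD, n = 3), of which the LHCB genes made up 51.5 ± 1.52%. LHCB1.3, a gene for the major trimeric antenna, led the members at 2660 CPM per kb of transcript, followed by LHCB1.5 at 1340 CPM per kb. The highest photosystem I subunit was PSAG, which helps hold the antenna to the core, at 450 CPM per kb. In hy5-2 hypocotyls the sum was 8280 ± 620 CPM and LHCB genes made up 47.0 ± 1.62%. The range at T0 was wide: LHCB2.3 averaged 2.98 CPM, LHCB7 2.31 CPM and LHCA6 0.89 CPM in Col-0.

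**Figure D1:**
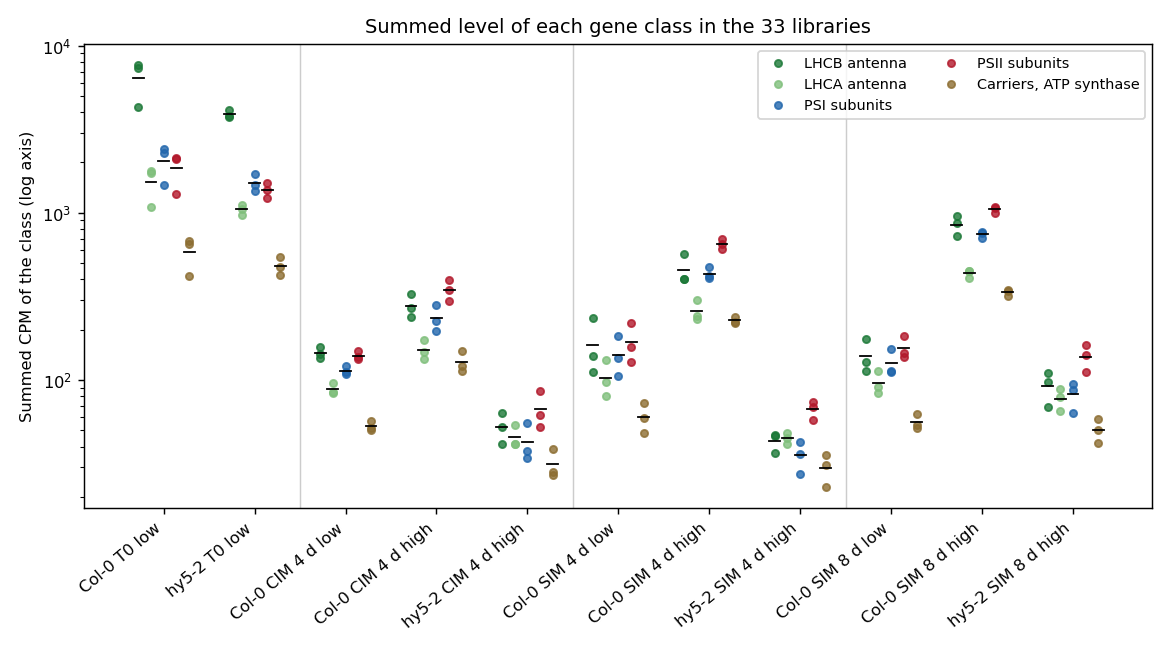
Summed CPM of the LHCB, LHCA, photosystem I, photosystem II and carrier genes (log axis) in the 33 libraries by group; points are libraries and bars group means. All 5 classes were lower in every cultured group than at T0, and among cultures were highest in Col-0 high light after 8 days on SIM, at 851, 435, 747, 1050 and 334 CPM.

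Nearly the whole module fell when hypocotyls became callus. In Col-0 low light, 46 of the 47 tested members fell between T0 and CIM and none rose, in a comparison where 40% of all tested genes fell and 39.1% rose. The median log2 change of the members was -4.11, and that of all tested genes -0.004. The LHCB genes had a median of -5.25, the LHCA genes -4.23, the photosystem I genes -4.21, the photosystem II genes -3.71 and the carriers -3.6. LHCB7 (AT1G76570), a low-level antenna gene of unusual structure, was the member that did not pass, with a log2 difference of 0.03. Markers of other cell types moved over the same interval: all 4 mesophyll markers fell (median -5.95, sum 678 ± 238 to 15.6 ± 1.7 CPM), all 5 xylem markers fell (median -2.11, sum 567 ± 37.4 to 149 ± 23.2 CPM) and all 4 root markers rose (median 8.02, sum 61.2 ± 5.42 to 192 ± 10.8 CPM). The other marker lists were mixed. Of 3 epidermis markers 1 rose and 2 fell, and of 3 guard cell markers 1 rose and 2 fell. Of 4 leaf primordium markers 1 rose and 2 fell, and of 5 shoot meristem markers 1 rose and 1 fell. The part of these markers in the fall of the module was not tested. Callus in low light kept 541 ± 35 CPM of the summed level, and the members' share of counts was 0.0536 to 0.0589%.

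LHCB1.3 was counted at 2080, 3620 and 4110 CPM in the Col-0 T0 libraries and at 37.5, 48.9 and 41.9 CPM in callus from low light. No callus library came near the T0 range. LHCB1.4 (AT2G34430), another major antenna gene, went from 117, 276 and 395 CPM at T0 to between 0 and 4 counts in every cultured library of any group. The composition of the module shifted as well: the ratio of summed LHCB to photosystem II CPM was 3.46 ± 0.172 in Col-0 and 2.86 ± 0.207 in hy5-2 at T0, and averaged between 0.643 and 1.05 in the 9 cultured groups.

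Among duplicated genes the balance moved too. PSBQ2 made up 65.0 ± 1.94% of PSBQ CPM in Col-0 at T0 and averaged 25.3 to 37.5% in Col-0 cultures. LHCB4.2, which encodes a minor antenna linking the trimers to the core, made up 31.5 ± 2.04% of LHCB4 CPM at T0 and averaged 6.23 to 8.84% in Col-0 cultures. The interval of LHCB4.2 overlaps that of a neighbouring locus, AT3G08943, at 67.3 CPM at T0 and 73.3 to 96.2 CPM in Col-0 cultures, and the part of shared reads was not tested.

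Shoot induction in low light left the module near its callus level. Between CIM and 8 days on SIM in Col-0 low light, 1 of 47 members rose (24% of all tested genes did) and 1 fell (23.5% of all did), with a member median of 0.11. PSAE2 (AT2G20260), a stromal photosystem I subunit near the ferredoxin docking site, rose by 0.51 (edgeR adjusted p = 0.0473), and LHCA5 (AT1G45474), an antenna protein that links photosystem I to the NDH complex, fell by 1.67 on the log2 scale. The count of 2 became 1 without the second CIM or the first SIM library and 4 without the third SIM library. The PSAE2 call was lost without the second or the third CIM library, and without the first or the second SIM library (0.42 to 0.51, edgeR adjusted p = 0.0846 to 0.167). RLE scaling in place of TMM lost the PSAE2 call too (0.49, edgeR adjusted p = 0.0537). Over the same interval in Col-0 high light 45 members rose (29.6% of all tested genes did), with a median of 1.55, and none fell (24.3% of all did); LHCB1.4 and LHCB2.3 did not pass. In hy5-2 high light 24 rose (27.8% of all did) and 1 fell (28.3% of all did), with a median of 0.78.

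The rises in hy5-2 were spread over the classes as 8 of 12 photosystem I genes, 7 of 10 photosystem II genes, 3 of 5 tested LHCA genes, 3 of 5 carriers and 3 of 15 LHCB genes. PSBO2 (AT3G50820), a gene for the manganese-stabilising protein of the oxygen-evolving complex, had the largest rise in hy5-2, 2.42 on the log2 scale. LHCA5 fell there by 1.1. The summed level in hy5-2 went from 238 ± 52.5 CPM on CIM to 220 ± 30.3 CPM after 4 days and 439 ± 82.1 CPM after 8 days on SIM.

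**Figure D2:**
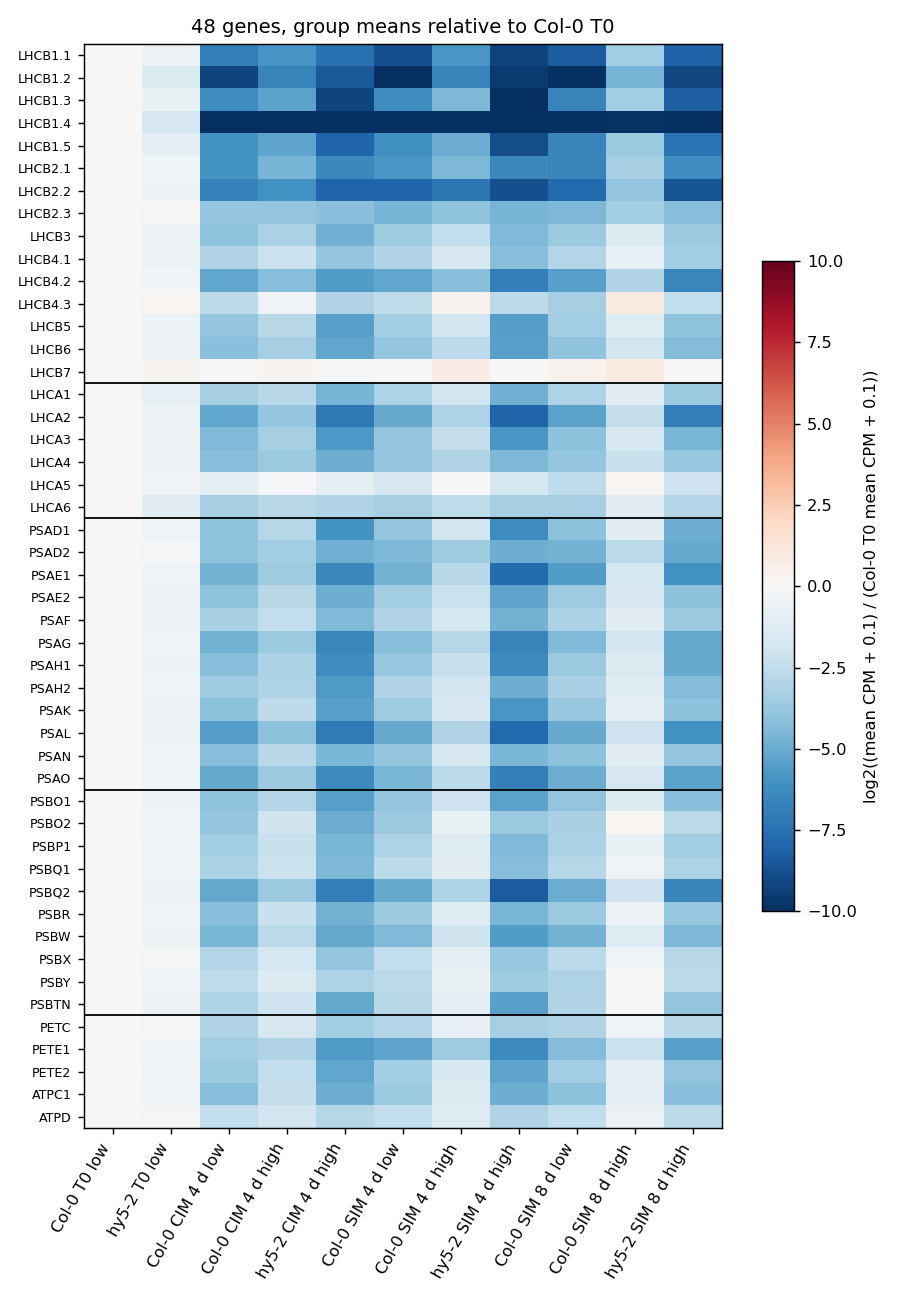
Mean level of the 48 genes (rows, by class) in the 11 groups (columns) as log2 of the group mean over the Col-0 T0 mean, each with 0.1 CPM added. Cultured groups are below T0 for most genes, least so in Col-0 high light after 8 days on SIM; LHCB7, LHCB4.3, LHCA5, PSBO2 and PSBY are above their T0 level there.

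High light raised the module at all 3 cultured stages in Col-0. On CIM 33 of 47 members were higher in high than in low light, against 5.14% of all tested genes. After 4 days on SIM 43 were higher, against 9.09% of all tested genes, and after 8 days 44, against 16% of all tested genes. No member fell at any of the 3 stages, where 3.14, 4.39 and 11.6% of all tested genes did. The member medians were 1.13, 1.72 and 2.54 log2, and the medians of all tested genes -0.013, -0.016 and -0.011. In low and high light respectively, the summed level was 541 ± 35 and 1140 ± 176 CPM on CIM, 635 ± 188 and 2030 ± 219 CPM after 4 days on SIM, and 574 ± 102 and 3420 ± 81.5 CPM after 8 days. High-light and low-light libraries did not overlap in this sum at any stage.

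All 10 photosystem II genes rose at each of the 3 stages. Of the 12 photosystem I genes, 10, 11 and 12 rose on CIM and after 4 and 8 days on SIM, and of the 15 LHCB genes 6, 12 and 12. Of the 5 tested LHCA genes 3, 5 and 5 rose, and of the 5 carriers 4, 5 and 5. The members that did not pass after 8 days were LHCB7, LHCB1.4 and LHCB2.3. After 4 days they were PSAD2, LHCB2.2, LHCB1.4 and LHCB2.3. On CIM they were LHCB1.1 to LHCB1.5, LHCB2.2, LHCB2.3, LHCB4.2, LHCB7, LHCA1, LHCA4, PSAD2, PSAH2 and PETE1.

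**Figure D3:**
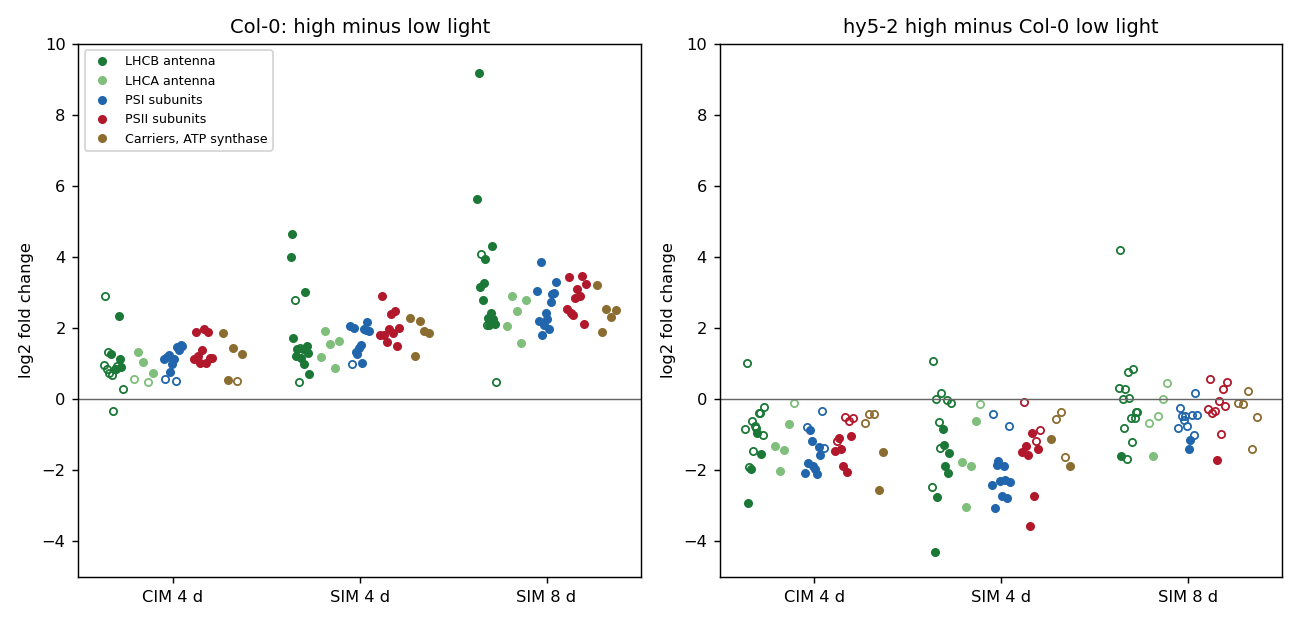
Log2 differences of the members by class for the light contrast within Col-0 and for high-light hy5-2 against low-light Col-0, at 3 stages; filled points passed the test and open points did not. The light medians rise from 1.13 to 2.54 with stage, the second set has medians of -1.17, -1.52 and -0.38, and the LHCB1.2 points at 9.19 and 4.2 were fitted against a group without counts and give no size.

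The trimeric antenna genes showed the widest range. LHCB1.3 stood at 28.3, 41.6 and 25.0 CPM in low light after 8 days on SIM and at 266, 322 and 277 CPM in high light, with no overlap. Its log2 difference was 3.17 ± 0.35 (SE; edgeR adjusted p = 1.55e-07), after 1.72 ± 0.33 at 4 days (edgeR adjusted p = 0.000516) and 0.86 ± 0.34 on CIM (edgeR adjusted p = 0.133). LHCB1.2, which shares much of its sequence with LHCB1.3 as printed above, had no count in the 3 low-light libraries after 8 days and 38, 85 and 61 counts in the high-light ones. It was at least 63.7-fold higher in high light, against a floor of 3 counts over the group. On CIM the LHCB1.2 level in high light was 3.38, 0.596 and 0.651 CPM, so 1 library, the one with CA1 counts, set that mean.

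LHCB7 had the smallest light difference of the LHCB genes after 8 days on SIM. It ranged from 1.48 to 5.1 CPM over all 33 libraries, T0 included. Its light difference was 0.28 ± 0.21 on CIM, 0.72 ± 0.19 after 4 days on SIM (edgeR adjusted p = 0.00724) and 0.5 ± 0.2 after 8 days (edgeR adjusted p = 0.0621). The call at 4 days was lost without the third high-light library (0.56) or the third low-light library (0.63), and the gene passed at 8 days without the second high-light library (0.66). LHCB4.3 (AT2G40100), a minor antenna gene singled out after its values were seen, lay at the other end. It was at 0.484, 1.03 and 0.922 CPM in low light after 8 days and at 16.1, 18.8 and 16 CPM in high light, above its T0 values of 10.1, 7.96 and 9.24 CPM. Its light difference was 4.32 ± 0.25 (edgeR adjusted p = 5.4e-15), and its share of LHCB4 CPM averaged 11.6 to 13.2% in Col-0 high-light cultures and 2.65 to 4.73% in low-light ones.

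**Figure D4:**
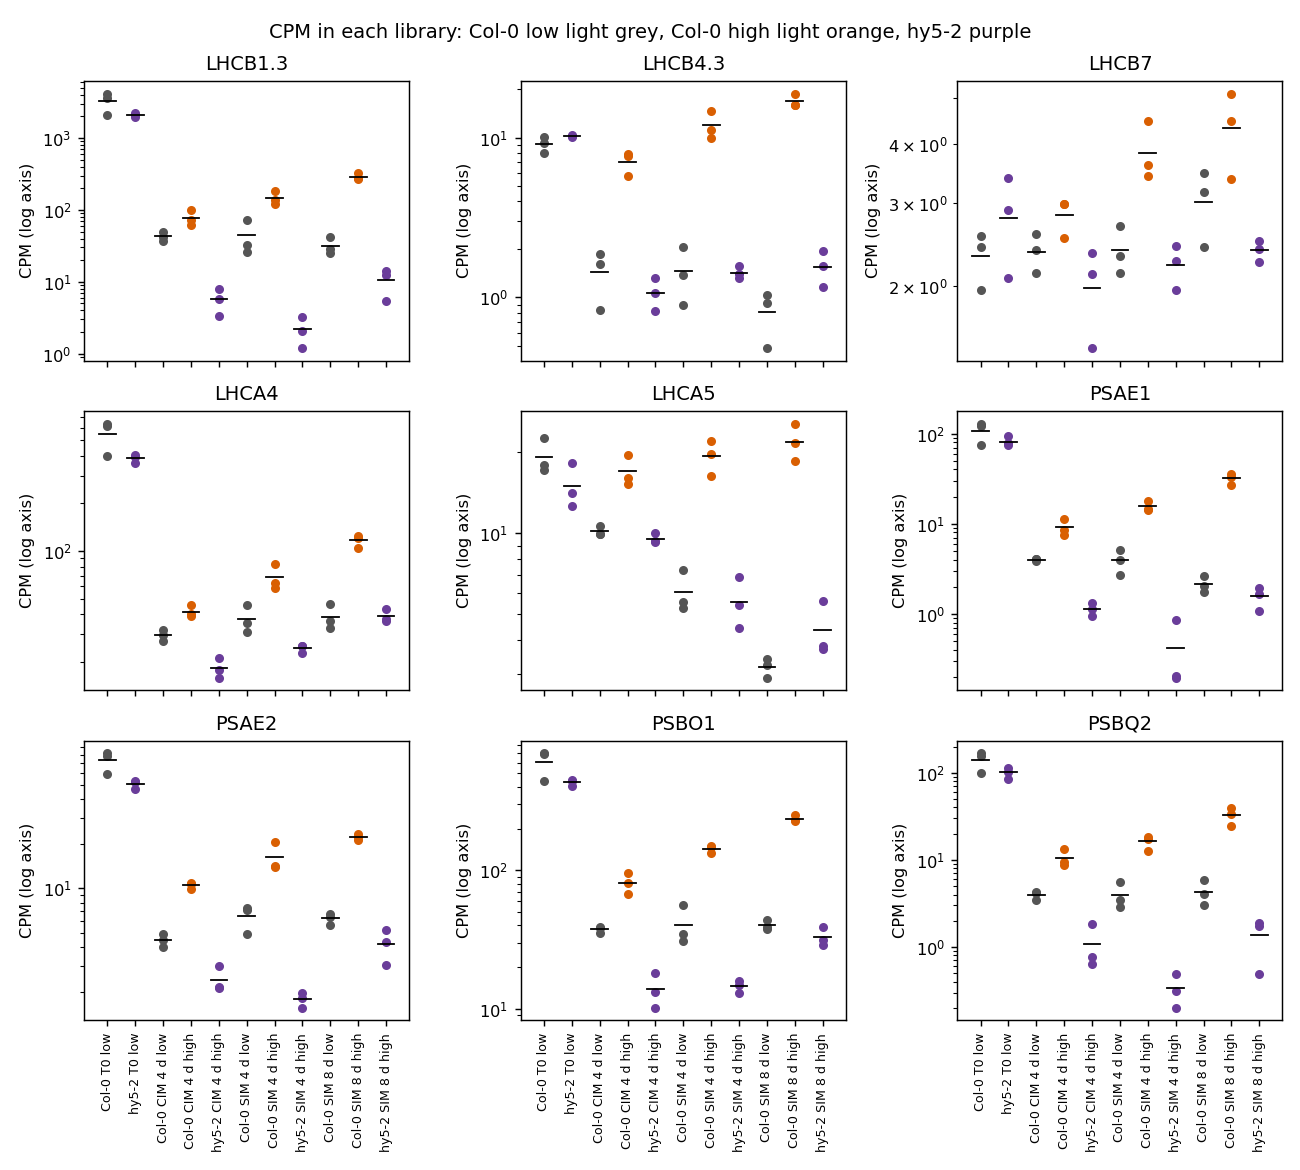
CPM (log axis) of 9 genes, LHCB1.3, LHCB4.3, LHCB7, LHCA4, LHCA5, PSAE1, PSAE2, PSBO1 and PSBQ2, in every library by group. LHCB7 stays between 1.48 and 5.1 CPM throughout, whereas LHCB1.3 runs from 1.21 CPM in hy5-2 on SIM to 4110 CPM at T0.

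Of the photosystem I antenna, LHCA2 rose most and LHCA4 least after 8 days on SIM. LHCA2 (AT3G61470) stood at 7.62, 12.4 and 8.64 CPM in low and 70.4, 71.7 and 78.5 CPM in high light, a log2 difference of 2.9 ± 0.26 (edgeR adjusted p = 3.71e-09). LHCA4 stood at 36.3, 46.2 and 32.6 CPM in low and 105, 121 and 124 CPM in high light, a difference of 1.59 ± 0.17 (edgeR adjusted p = 3.31e-08). LHCA4 was thus the more abundant gene in low light and changed by less. Its interval overlaps AT3G47460, which was at 71.9 CPM in low and 71.1 CPM in high light, and the part of shared reads in the LHCA4 level was not tested.

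LHCA5, chosen after its values were seen, parted from its class over time. In low light it averaged 10.2 CPM on CIM, 6.05 CPM after 4 days and 3.18 CPM after 8 days on SIM. In high light the means were 17.0, 19.4 and 21.9 CPM, and at T0 19.2 ± 2.94 CPM. The light difference at 8 days was 2.78 ± 0.19 (edgeR adjusted p = 2.04e-13). An overlapping locus, AT1G45545, averaged 2.43 CPM in low and 5.53 CPM in high light at 8 days, and the part of shared reads was not tested.

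Among photosystem I subunits the PSAE pair held both extremes after 8 days on SIM. PSAE1 (AT4G28750) was at 2.06, 2.61 and 1.73 CPM in low and 35.4, 27.1 and 33.3 CPM in high light, a log2 difference of 3.86 ± 0.27 (edgeR adjusted p = 6.16e-12). PSAE2 was at 6.77, 6.4 and 5.65 CPM in low and 21.1, 23.3 and 22.2 CPM in high light, a difference of 1.82 ± 0.17 (edgeR adjusted p = 1.61e-10). The share of PSAE2 in PSAE CPM was accordingly 74.8 ± 3.23% in low and 41.2 ± 4.58% in high light, next to 40.8 ± 3.14% at T0. PSAE1 shares 29.11% of its 50-base stretches with other loci, and PSAE2 overlaps AT2G20270, at 14.4 CPM in low and 18.3 CPM in high light.

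PSAG (AT1G55670) had the highest level per kb of its class averaged over all libraries, which T0 dominates; in every cultured group PSAF, the plastocyanin-docking subunit, was higher per kb. PSAG was at 14.3, 20.3 and 15.9 CPM in low and 110, 80.4 and 88.5 CPM in high light after 8 days. Its log2 difference was 2.44 ± 0.25 (edgeR adjusted p = 2.71e-08). The low-light and high-light libraries of PSAG did not overlap. Of its 50-base stretches 58.82% recur in the transcript of AT1G55673, so its reads are uncertain. PSAH1, which takes part in docking of the mobile antenna, overlaps AT3G16130, and that locus moved with it, from 3.77 CPM in low to 23.2 CPM in high light. Reads of the overlapping loci cannot be told apart here.

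The photosystem II class passed the light test as a whole already on CIM. PSBR (AT1G79040), a subunit that helps attach the oxygen-evolving proteins, was the highest member per kb in Col-0 callus in high light, at 69.7 CPM per kb. It stood at 14.3, 14.0 and 13.4 CPM in low and 64.1, 53.0 and 46.9 CPM in high light on CIM, a log2 difference of 1.98 ± 0.21 (edgeR adjusted p = 2.82e-07). After 8 days the values were 17.9, 23.0 and 16.9 CPM against 187, 155 and 163 CPM, a difference of 3.1 ± 0.2 (edgeR adjusted p = 4.35e-12). The groups were apart at both stages.

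PSBW (AT2G30570), a small membrane subunit, had the largest rise of the class at 8 days. It went from 5.08, 5.92 and 5.19 CPM in low to 55.3, 59.7 and 68.0 CPM in high light, 3.48 ± 0.29 log2 (edgeR adjusted p = 6.25e-10). PSBX (AT2G06520), another small membrane subunit, had the smallest, from 11.9, 20.9 and 17.2 CPM to 58.7, 80.3 and 83.3 CPM, 2.13 ± 0.24 log2 (edgeR adjusted p = 1.06e-07). Even the smallest rise in the class kept the groups apart. Of the PSBO pair, PSBO2 was 15.5 ± 0.897% of PSBO CPM in high light, 8.69 ± 0.702% in low light and 5.75 ± 0.535% at T0.

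The carriers and ATP synthase genes followed. PETE2 (AT1G20340), the main plastocyanin gene, which carries electrons to photosystem I, was at 16.4, 22.0 and 19.6 CPM in low and 127, 102 and 108 CPM in high light after 8 days, 2.52 ± 0.21 log2 (edgeR adjusted p = 6.08e-10). ATPC1 (AT4G04640), the gamma subunit of the chloroplast ATP synthase, was at 10.4, 12.1 and 8.87 CPM and at 94.7, 97.1 and 104 CPM, 3.22 ± 0.23 log2 (edgeR adjusted p = 7.68e-11). ATPD (AT4G09650), the delta subunit of the same enzyme, was at 12.8, 15.6 and 14.4 CPM and at 59.7, 45.8 and 55.2 CPM, 1.89 ± 0.17 log2 (edgeR adjusted p = 4.77e-10). The enzyme's subunit genes thus differed in size of change and not in direction, and no library of one light reached the other. PETE1 was a minor plastocyanin transcript throughout, at 15.6 CPM at T0 and at most 3.51 CPM on average in culture.

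The light difference was larger after 8 days on SIM than on CIM for 39 of 47 members in the test of the difference itself, against 6.99% of all tested genes. None was smaller, against 3.66% of all. The member median of this difference was 1.47 log2, and that of all genes 0.009. It passed for all 5 tested LHCA genes, all 5 carriers, 11 of 15 LHCB, 10 of 12 photosystem I and 8 of 10 photosystem II genes. Those that did not pass were LHCB1.2, LHCB1.4, LHCB2.3, LHCB7, PSAE2, PSAK, PSBQ2 and PSBX. PSAE1 gained 2.68 ± 0.42 (edgeR adjusted p = 8.75e-05), whereas PSAE2 gained 0.57 ± 0.26 (edgeR adjusted p = 0.168).

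Against the T0 level, high light brought the classes to different heights after 8 days on SIM. As a share of its Col-0 T0 mean, the median member reached 40.0%, the median LHCB gene 9.91%, the median LHCA gene 38.3%, the median photosystem I gene 34.7%, the median photosystem II gene 69.1% and the median carrier 54.7%. The LHCA median includes the untested LHCA6, at 43.4% from 11 counts against 18 at T0. Among the 5 tested LHCA genes the middle one was LHCA3, at 33.2%, so LHCA and photosystem I genes are not ranked here. Within photosystem II the range ran from 23.2% for PSBQ2 to 115% for PSBO2, and within photosystem I from 16.5% for PSAD2 to 50.8% for PSAK. Besides PSBO2, the genes above their T0 mean were LHCB7 at 187%, LHCB4.3 at 186%, LHCA5 at 114% and PSBY at 111%, and LHCB1.4 was at 0.0681% of it. In hy5-2 after 8 days the median member was at 7.63% of its hy5-2 T0 mean, a different base from the Col-0 shares.

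**Figure D5:**
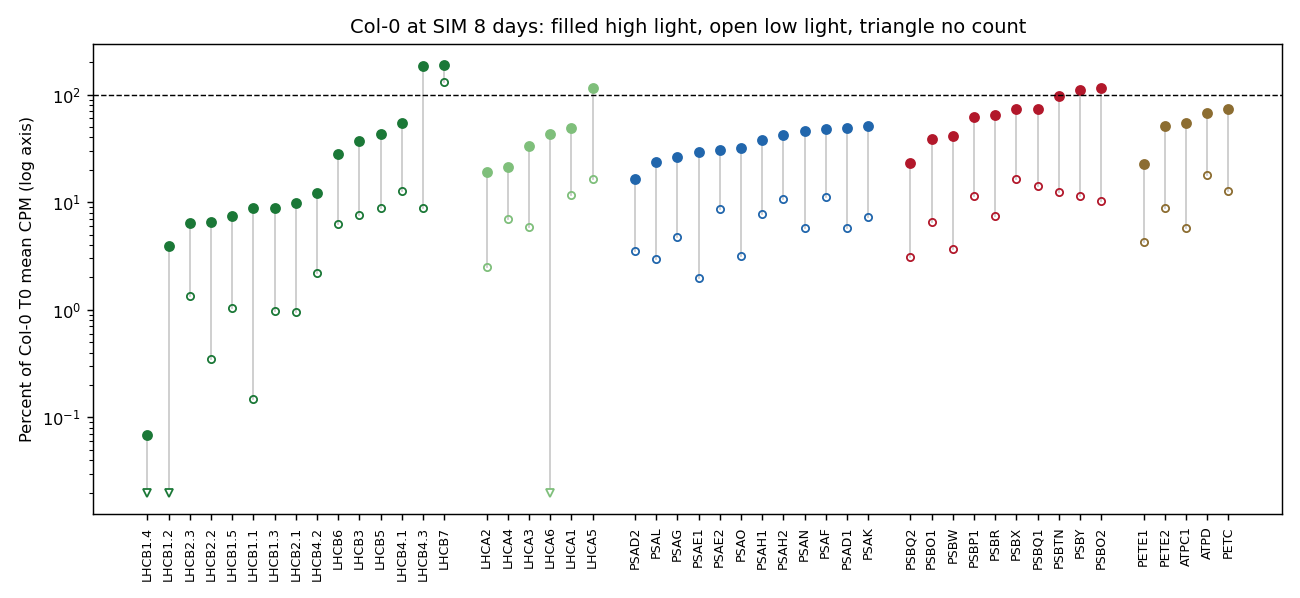
Mean level in Col-0 after 8 days on SIM as a percentage of the Col-0 T0 mean (log axis) for each gene by class, high light filled and low light open, triangles for no count. In high light the median is 9.91% for LHCB and 69.1% for photosystem II genes.

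Before culture, few members passed the test between hy5-2 and Col-0. Of 47 members 6 were lower in hy5-2 at T0, against 3.14% of all tested genes, with a median of -0.46 against 0.007 for all genes, and none was higher (1.98% of all were). They were LHCB1.4 (-1.69), LHCB1.2 (-1.42), LHCB1.5 (-0.95), LHCA1 (-0.84), PSAE2 (-0.53) and LHCA4 (-0.52). With replicate number as a block 12 were lower, and without the first Col-0 T0 library, the low one, 31 were. The count was 2 without the second and 3 without the third Col-0 library, and 3 without the third hy5-2 library. LHCB1.5 and LHCA4 each lost the call in 5 of the 6 fits without a T0 library, PSAE2 in 3 and LHCA1 in 1. LHCA4 was at 400, 639 and 617 CPM in Col-0 and at 391, 407 and 360 CPM in hy5-2, and the groups overlapped.

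In high-light culture the module was low in hy5-2 throughout. On CIM 42 of 47 members were lower than in Col-0, against 9.15% of all tested genes, after 4 days on SIM 43, against 10% of all, and after 8 days 45, against 13.4% of all. No member was higher, against 6.37, 10.4 and 10.1% of all. The medians were -2.45, -3.16 and -3.01 log2, and those of all tested genes 0.011, 0.011 and 0.006. LHCB1.4 and LHCB2.3, which had few counts in culture, passed at no stage. These comparisons share the Col-0 high-light libraries with the light comparisons, so the 2 sets of values are not independent.

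Every photosystem I, photosystem II and carrier gene and every tested LHCA gene was lower in hy5-2 at each stage. Of the 15 LHCB genes 10, 11 and 13 were. LHCB1.3 stood at 8.04, 5.72 and 3.3 CPM on CIM, at 3.29, 2.06 and 1.21 CPM after 4 days and at 14.0, 12.3 and 5.39 CPM after 8 days on SIM in hy5-2. The Col-0 high-light values at 4 days were 138, 183 and 121 CPM, and the log2 difference was -6.01 ± 0.49 (edgeR adjusted p = 1.3e-09). LHCB1.1 had no count in hy5-2 at 4 days against 44 in Col-0, at least 11.2-fold lower. Among LHCB1 genes LHCB1.5 took a larger share in hy5-2 cultures, averaging 44.5 to 55.9%, than in Col-0 high-light ones, at 23.1 to 31.1%, though shared reads bear on both figures. LHCB1.5 also overlaps AT2G34410, which averaged 27.7 to 35.8 CPM in hy5-2 cultures and 31.2 to 38.3 CPM in Col-0 high-light ones. The part of reads from that locus in these shares was not tested.

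Within classes the fall in hy5-2 was unequal. LHCA2 was at 3.2, 4.47 and 2.16 CPM after 8 days in hy5-2, a log2 difference from Col-0 high light of -4.5 ± 0.31 (edgeR adjusted p = 4.31e-11). LHCA4 was at 43.2, 37.3 and 36.2 CPM, a difference of -1.58 ± 0.17 (edgeR adjusted p = 3.98e-08). LHCA4 was the highest member per kb in all 3 hy5-2 culture groups, at 14.1, 18.8 and 30.0 CPM per kb. The locus that overlaps it, AT3G47460, averaged 83.0, 60.2 and 66.6 CPM in those groups. The part of shared reads in this rank was not tested. The ratio of summed LHCA to photosystem I CPM was 1.08 ± 0.121, 1.3 ± 0.222 and 0.951 ± 0.065 in the hy5-2 cultures and averaged 0.584 to 0.774 in the Col-0 cultures. The LHCA sum includes LHCA4, so the same limit holds for this ratio.

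PSBQ2, whose upstream window is printed above, reached its lowest values in hy5-2 after 4 days on SIM. It was at 0.313, 0.49 and 0.202 CPM there and at 17.6, 18.5 and 12.8 CPM in Col-0 high light, a log2 difference of -5.53 ± 0.52 (edgeR adjusted p = 6.5e-09) resting on 11 counts in hy5-2. Its partner PSBQ1 (AT4G21280) was at 4.08, 4.71 and 3.04 CPM in hy5-2 and 29.6, 40.0 and 36.0 CPM in Col-0, -3.16 ± 0.26 (edgeR adjusted p = 4.23e-10). PSBQ2 was thus 7.61 ± 1.64% of PSBQ CPM in hy5-2 and 31.7 ± 5.52% in Col-0 high light at that stage, against 64.5 ± 1.16% in hy5-2 at T0.

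The share of members whose genotype difference changed between CIM and 8 days on SIM was near that of all genes. It became more negative for 3 of 47, against 7.08% of all tested genes, with a member median of -0.73 against -0.014 for all genes: LHCB4.2 (-2.3), LHCA5 (-1.48) and ATPD (-1.05). None became less negative (5.82% of all did). The count was 7 without the first Col-0 CIM and 5 without the first Col-0 SIM library in high light. ATPD, the delta subunit gene, was at 11, 10.2 and 11.5 CPM in hy5-2 on CIM and 13.7, 13.5 and 12.1 CPM after 8 days. The Col-0 high-light values went from 25.4, 20.5 and 18.8 CPM to 59.7, 45.8 and 55.2 CPM. The ATPD gap thus widened with the rise in Col-0.

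Although hy5-2 was in high light, many members were lower there than in Col-0 kept in low light. On CIM 25 of 47 were lower, against 6.63% of all tested genes, after 4 days on SIM 30, against 2.51% of all, and after 8 days 5, against 2.87% of all. None was higher at any stage, against 3.94, 5.51 and 3.96% of all. The medians were -1.17, -1.52 and -0.38 log2, and those of all genes 0.006, -0.002 and 0. Group means stood in the order Col-0 high, Col-0 low, hy5-2 high for 45, 44 and 33 of the 48 genes at the 3 stages, and for 16.4, 19.3 and 17.1% of all tested genes. These comparisons share the Col-0 low-light libraries with the light comparisons.

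On CIM and after 4 days the lower genes included 9 and 10 of the 12 photosystem I genes, 4 and 4 of the 5 tested LHCA genes, 6 and 7 of the 10 photosystem II genes, 4 and 7 of the 15 LHCB genes and 2 and 2 of the 5 carriers. After 8 days they were LHCB1.3 (-1.59), LHCA2 (-1.6), PSAH1 (-1.41), PSAH2 (-1.15) and PSBQ2 (-1.7). The PSBQ2 call was lost in 5 of the 6 fits without a library of the groups compared (edgeR adjusted p = 0.0748 to 0.264) and with a replicate block (edgeR adjusted p = 0.067). LHCB1.3 on CIM shows the gap, at 3.3 to 8.04 CPM in hy5-2 and 37.5 to 48.9 CPM in Col-0 low light, -2.93 ± 0.43 log2 (edgeR adjusted p = 7.59e-05). LHCA5 had -0.10 ± 0.16 (edgeR adjusted p = 0.785) at that stage, which did not pass. The count of 5 at 8 days became 1 without the second Col-0 low-light library, 1 without the third hy5-2 library and 3 without the first hy5-2 library.

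Motifs known from light-regulated promoters were counted in the upstream windows. The G-box CACGTG was found in the 250 bases before the table's gene start in 20 of 48 members (41.7%) and in 7.69% of 27205 protein-coding loci. The I-box GATAAG, read on both strands, was found in 25 of 48 (52.1%) and in 12.8% of all, and the ACGT core, which the G-box contains, in 34 of 48 (70.8%) and in 45.6% of all. By class the G-box was in 8 of 10 photosystem II, 4 of 12 photosystem I, 3 of 6 LHCA, 4 of 15 LHCB and 1 of 5 carrier genes. With the gene starts of the RefSeq annotation, 11 of 48 members (22.9%) held a G-box against 6.58% of 26713 loci, and 11 of 48 (22.9%) an I-box against 12.2%. The ACGT core was then in 26 of 48 (54.2%) against 44.2%, so all 3 shares depend on the gene starts used.

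The 2 printed windows both hold the G-box and belong to genes of unequal change. PSBQ2 has G-boxes beginning 145 and 77 bases before its start and an I-box 15 bases before it, and LHCA4 has a G-box 88 bases before its start and no I-box. Across members the median light difference after 8 days was 2.37 log2 for the 19 tested genes with a G-box and 2.79 for the 28 without. The median genotype difference at that stage was -2.82 with and -3.19 without. The motif matches are descriptions of letters, and no binding was measured.

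Most other thylakoid genes on a separate list also fell in callus and rose in high light. The 29 partner and assembly genes (among them PSBS, ferredoxin and its reductase FNR, cyclic-flow, state-transition and assembly factors) had 28 members lower on CIM than at T0 in Col-0 low light, with a median of -1.99; FD1, a ferredoxin gene, had -0.27. Of all tested genes 40% fell in that comparison, with a median of -0.004. Under high light 24, 28 and 29 of the partners rose, against 5.14, 9.09 and 16% of all tested genes. Their medians were 0.61, 1.14 and 1.57. PSBS, the sensor of energy-dependent quenching, rose most, by 6.85 after 8 days, and LPA1, an assembly factor of photosystem II, least, by 0.35. In hy5-2 high light 22, 27 and 28 were lower than in Col-0, against 9.15, 10 and 13.4% of all tested genes. The partner medians there were -0.57, -1.28 and -1.38.

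Against Col-0 low light, hy5-2 in high light had at most 5 of these 29 partners lower at a stage. On CIM 2 of 29 fell and none rose, after 4 days 5 fell and 2 rose, and after 8 days none fell and 4 rose. Of all tested genes 6.63, 2.51 and 2.87% fell and 3.94, 5.51 and 3.96% rose, so the 2 on CIM are near the background. The 5 lower after 4 days and the 4 higher after 8 days are larger shares than those of all genes. The risers at 8 days were FNR2 (1.82), a ferredoxin-NADP reductase, PGRL1B (1.13) and PGR5 (0.64) of cyclic electron flow, and STN7 (0.59), the state-transition kinase. Medians were -0.04, -0.11 and 0.07. No gene of the module rose in those comparisons.

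Marker genes of other cell types moved with some of these differences. Of the 4 mesophyll markers RBCS1A averaged 11.8 CPM in Col-0 low and 517 CPM in high light after 8 days, GLK2 rose by 1.5 log2, CA1 was at 0.0403 and 0.0346 CPM, and the list summed to 13.6 ± 3.08 and 522 ± 13.6 CPM. RBCS1A thus made up most of both sums. At the same stage all 5 xylem markers rose (sum 132 ± 13.5 to 275 ± 16.2 CPM), as did 3 of 5 shoot meristem markers (sum 42.1 ± 5.21 to 66.2 ± 4.6 CPM), 3 of 4 leaf primordium markers (sum 185 ± 0.45 to 243 ± 18.0 CPM), 1 of 3 epidermis markers (sum 14.1 ± 1.24 to 23.9 ± 7.47 CPM) and none of 3 guard cell markers (sum 1.21 ± 0.178 to 1.36 ± 0.456 CPM). Of 4 root markers WOX5 fell (sum 12.0 ± 3.68 to 7.87 ± 2.71 CPM). In hy5-2 after 8 days, mesophyll markers summed to 21.7 ± 6.58 CPM, xylem markers to 197 ± 30.4 CPM, shoot meristem markers to 46.2 ± 4.64 CPM and leaf primordium markers to 200 ± 6.45 CPM. Root markers were higher in hy5-2 than in Col-0 high light for 3 of 4 genes on CIM (sums 287 ± 19.5 and 172 ± 11.4 CPM) and for 4 of 4 after 4 days on SIM (29.1 ± 8.3 and 10.9 ± 2.46 CPM). On CIM 4 of 5 xylem markers were lower in hy5-2 (107 ± 6.31 and 178 ± 17.1 CPM). Shoot meristem sums on CIM were 23.0 ± 2.75 CPM in hy5-2 and 11.9 ± 2.65 CPM in Col-0 high light. In the same order epidermis sums were 507 ± 41.8 and 376 ± 40.5 CPM. Guard cell sums were 33.7 ± 10.2 and 45.3 ± 8.63 CPM, and leaf primordium sums 82.1 ± 9.74 and 92.4 ± 11.1 CPM. The mesophyll sums were 15.9 ± 6.42 CPM in hy5-2 and 142 ± 54.6 CPM in Col-0 high light on CIM, and 7.81 ± 2.41 and 298 ± 34.9 CPM after 4 days. Their part in the results was not tested. On CIM, where 33 members rose with light, the mesophyll sums were 15.6 ± 1.7 and 142 ± 54.6 CPM in low and high light. RBCS1A passed there and the other 3 mesophyll markers did not, GLK1 having a difference of -0.29 log2. The shoot meristem sums were 12.7 ± 1.55 and 11.9 ± 2.65 CPM and the leaf primordium sums 98.7 ± 8.76 and 92.4 ± 11.1 CPM in low and high light.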

How the data were processed

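The deposited table holds raw counts of reads per gene, made by the authors; per the submitters' processing notes, STAR, SAMtools, bedtools and edgeR were used with TAIR10, and the sources used here give no versions, strand setting or handling of multiply mapped reads. Groups were taken from the sample labels. From the counts, edgeR 4.0.16 (limma 3.58.1, R 4.3.3) fitted 1 coefficient per group over 33 libraries with TMM scaling, filterByExpr (minimum count 10) and robust quasi-likelihood tests, with Benjamini-Hochberg adjustment over 20842 genes at 0.05; the SE is the log2 change over the root of F. CPM uses TMM-adjusted totals. The p-values rest on spread between biological replicates within groups, estimated over all 11 groups together and not only over the groups compared. Library totals were 7.24 to 21.18 M (1e6 reads), and counting intervals and floors of 3 counts cover counting error only. In data simulated for light after 8 days on SIM (20240 genes), 65.7% of 1.5-fold, 89.6% of 2-fold and 90.9% of 4-fold changes were recovered.

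The members and gene lists were chosen with earlier results of these data known. Values in each library were given for the highest member per kb of each class and those with the largest and smallest light change after 8 days on SIM; LHCB4.3, LHCA5, PSBO2, PSBQ1, PSBQ2 and LHCB1.4 were added after their values were seen. Alternatives were RLE scaling, no low-count filter, cultured libraries only, only the groups compared, DESeq2 1.42.0, replicate blocks, summed near-identical copies and leaving out each replicate. Same-numbered replicates deviated together (all 3 correlations of deviations above 0.1) for light after 4 days on SIM, for genotype at T0, on CIM and after 4 days, and for hy5-2 high against Col-0 low light after 4 days. Upstream windows are the 250 bases before each gene start. The table's intervals held the whole RefSeq coding sequence for 99.18% of 26714 protein-coding loci. They shared a start or end with the RefSeq gene for 48.6%.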

Additional observations from a re-analysis of the deposited data

Results flagged for a closer look

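The light difference in Col-0 was larger after 8 days on SIM than on CIM for 10 of the 14 genes that the rule on level and light change selects (not LHCB1.2, LHCB7, PSAE2 and PSBX), in the edgeR test of the difference with Benjamini-Hochberg adjustment. The rule picks genes partly by their light change after 8 days, which is also a term of this difference. Selection and test thus share values, and the count is a description only. The gain in log2 difference was 2.68 for PSAE1, 2.3 for LHCB1.3, 1.6 for PSBW, 1.58 for LHCA2, 1.45 for PSAG, 1.36 for ATPC1, 1.34 for ATPD, 1.24 for PETE2, 1.12 for PSBR and 1.09 for LHCA4. Of the genes added after their values were seen, LHCA5 (2.04), LHCB4.3 (1.96), PSBO2 (1.55) and PSBQ1 (1.36) passed as well. PSAG (1.29, edgeR adjusted p = 0.0505) and PSBW (1.52, edgeR adjusted p = 0.063) no longer passed without the second low-light CIM library. For ATPD the difference between hy5-2 and Col-0 in high light also changed between those stages, by -1.05 (edgeR adjusted p = 0.00409).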

How the results depend on the processing

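Counts of members called kept within 1.5 times of the reported value under every alternative run, apart from 4 comparisons. For SIM 8 days against CIM in Col-0 low light (2 called) RLE scaling gave 1, cultured libraries only 7, only the groups compared 12 and DESeq2 7, and leaving out a replicate gave 1 to 4. For hy5-2 against Col-0 at T0 (6) the replicate block gave 12 and only the groups compared 1, and leaving out a replicate 2 to 31. For hy5-2 high against Col-0 low light after 8 days (5) only the groups compared gave 9 and DESeq2 8, and leaving out a replicate 1 to 6. For the change of the genotype difference (3) the replicate block gave 5, cultured libraries only 7, only the groups compared 8 and DESeq2 11, and leaving out a replicate 3 to 7. The cause was not tested. The block moved no other paired count by over 1.5 times.

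LHCB7 on CIM against T0 (0.03, not passed) changed sign without the first CIM library (-0.03) and without the second Col-0 T0 library (-0.11), with 0.11 as the highest value when a replicate was left out. PSBQ2 in hy5-2 high against Col-0 low light after 8 days lost its call under the replicate block (-1.68, edgeR adjusted p = 0.067) without the low-count filter (edgeR adjusted p = 0.0764) and in 5 of 6 fits without a replicate. LHCB1.3 under light on CIM passed with only the groups compared (edgeR adjusted p = 0.02), and after 4 days did not (edgeR adjusted p = 0.0728). For members with few counts in culture, LHCB1.4 and LHCB2.3, no light or genotype difference among cultures was detectable at this depth.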
